A study of Rattus norvegicus with 5 samples.

Results

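The genes described here are 10 that mark smooth muscle cells and pericytes, the contractile and supporting cells of vessel and hollow-organ walls: Acta2, Actg2, Tagln, Cnn1, Lmod1, Myh11, Myl9, Des, Rgs5 and Pdgfrb. They were taken by symbol from the annotation of the array, and every probe set with exactly 1 of these symbols was kept, which gave 13 probe sets for 10 of the 14217 genes with such probe sets. All 13 lay above the filter on dim probe sets. The tissue was the mesenteric fat around the pancreas of male Wistar rats, 7 weeks old at the start and caged singly. The standard group, the lean controls, was 3 rats fed chow with 8% of calories as fat, and the cafeteria group was 2 rats fed high-fat cafeteria food, in which fat supplied 66% of calories and which is used to induce obesity. Feeding lasted 30 days in both groups, which were otherwise unmodified animals, with 1 independent sample on each of 5 Affymetrix arrays.

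Smooth muscle contracts when myosin with a phosphorylated light chain pulls on thin filaments of smooth muscle actins, which are dressed with proteins such as calponin and transgelin and anchored through desmin and dense bodies. Transcription of these genes is driven by serum response factor with its coactivator myocardin. Pericytes sit on capillaries, depend on PDGF-B signalling through the receptor Pdgfrb, and carry Rgs5, a brake on G protein signalling. Fat contains both along its vessels, while Actg2 is best known from the muscle of gut and other hollow organs.

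The values are log2 expression levels from RMA, so 1 unit is a doubling, and they cannot be set against each other between probe sets. The array medians lay between 5.70 and 5.75. Fat cell markers were high on all arrays, with Adipoq between 12.94 and 13.28, and the endothelial marker Pecam1 read 8.61 to 9.04. Standard replicate 1 also carried pancreatic acinar transcripts: the mean over 27 acinar genes was 7.01 there and 4.19 to 4.37 on the other 4 arrays. The acinar enzyme gene Cpa1 was high in cafeteria samples too. It read 9.37, 5.34 and 5.94 on standard replicates 1, 2 and 3 and 7.38 and 9.07 on cafeteria replicates 1 and 2. Genes of the intestinal lining were near the bottom of the scale, with means over 14 genes of 3.92 to 3.99 on all arrays. Of 21729 probe sets tested, 0 passed an adjusted p of 0.05 for diet in limma, and 2754 (12.7%) had an unadjusted p under 0.05; a per-probe-set linear model without shared variance also called 0. The small number of arrays limits the precision of every value below.

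The contractile genes spread widely between the 3 standard arrays, and each of their differences between diets was smaller than the SD of that spread. For all 8 of them standard replicate 3 was the highest of the 5 arrays, which was so for 18.1% of all probe sets tested, and the standard arrays ran in 1 order, replicate 3 above replicate 1 above replicate 2, found in 11.6% of all. In 7 of the 8, standard replicate 3 lay more than 1 log2 unit above the next array; this held for 0.175% of all probe sets. The SD between the standard arrays ran from 0.60 for Lmod1 to 3.65 for Actg2, against a median of 0.10 over all probe sets tested. Neither pericyte gene ran in that order. Rgs5 had its lowest standard value on replicate 3. The brightest Pdgfrb probe set was highest there, by 0.53 over the next array and with an SD of 0.36, and the other Pdgfrb probe sets were not. Whether such spread comes from more smooth muscle cells in a sample or from more RNA per cell cannot be told apart in a tissue extract.

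**Figure D1:**
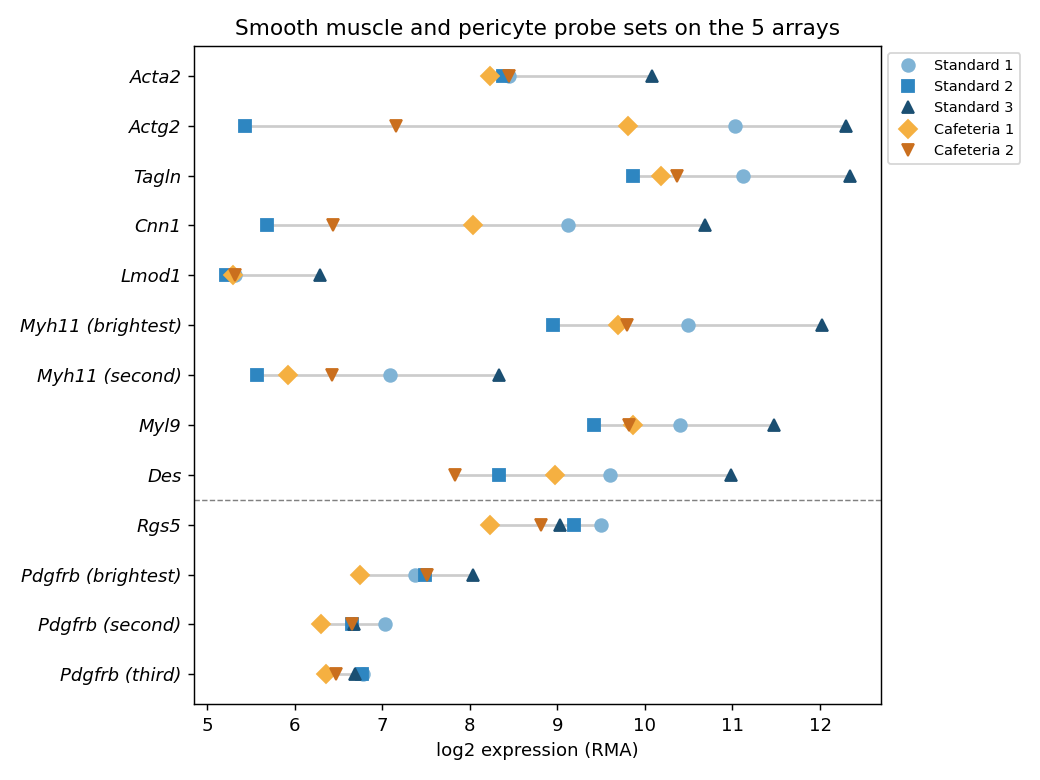
Log2 expression (x axis) of the 13 member probe sets (rows; the dashed line parts the contractile genes above from Rgs5 and Pdgfrb below) on each of the 5 arrays (points; the grey line spans the range). Standard replicate 3 is the highest point in all 9 contractile rows, while in the 4 pericyte rows it is the highest in 1.

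Among the thin filament genes, Actg2, the enteric gamma actin, had the widest range of all members. It read 11.03, 5.43 and 12.30 on standard replicates 1, 2 and 3, and 9.80 and 7.16 on cafeteria replicates 1 and 2. Standard replicate 3 was 116-fold above standard replicate 2, and standard replicate 1 was 48.2-fold above it, so the lowest and the highest array of the series were both from chow-fed rats. Cnn1, the actin-binding protein calponin 1, followed the same order of arrays. Its values were 9.12, 5.68 and 10.69 in the standard samples and 8.04 and 6.43 in the cafeteria samples. The fold between standard replicates 3 and 2 was 32.3 for Cnn1. Actg2 ranked 2 and Cnn1 ranked 10 by the SD between standard arrays among 11509 genes; most of the genes placed around them encode acinar enzymes, high on standard replicate 1.

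Acta2, the alpha actin of vascular smooth muscle, had another shape than Actg2. It read 8.45, 8.38 and 10.08 on standard replicates 1, 2 and 3 and 8.23 and 8.45 in the cafeteria samples. Only standard replicate 3 stood apart for Acta2, by 1.64 over the next array, and standard replicates 1 and 2 differed by 0.06 where they differed by 5.59 for Actg2. Lmod1, leiomodin 1, which nucleates actin filaments, had the same shape at a low level: 5.32, 5.21 and 6.29 in standard and 5.29 and 5.32 in cafeteria samples. Tagln, transgelin or SM22, an early marker of the smooth muscle programme, lay between these cases. It read 11.12, 9.86 and 12.34 in the standard samples and 10.18 and 10.36 in the cafeteria samples, so standard replicate 2 was the lowest array and both cafeteria arrays stood below standard replicate 1. Actins are near-identical copies, and signal of 1 actin on the probes of another was not tested. A further 5 probe sets annotated to both Acta2 and Actc1 were not used; their values ran from 3.67 to 6.09, with SDs between standard arrays of 0.01 to 0.20.

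The myosin subunits had the intermediate shape too. Myh11, the smooth muscle myosin heavy chain and the most cell-type-restricted gene of the set, read 10.49, 8.95 and 12.03 in the standard samples on its brightest probe set. The cafeteria arrays gave 9.70 and 9.79 there. Its second probe set repeated the order of arrays, with 7.09, 5.56 and 8.34 in standard and 5.92 and 6.43 in cafeteria samples. Standard replicate 3 exceeded standard replicate 2 by 8.44-fold on the first and by 6.83-fold on the second. Myl9, the regulatory light chain whose phosphorylation starts contraction, read 10.40, 9.41 and 11.47 in standard and 9.86 and 9.82 in cafeteria samples, a 4.16-fold range between standard arrays. Des, the intermediate filament protein desmin, read 9.60, 8.33 and 10.98 in standard samples and 8.97 and 7.83 in cafeteria samples; here cafeteria replicate 2 was the lowest array.

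**Figure D2:**
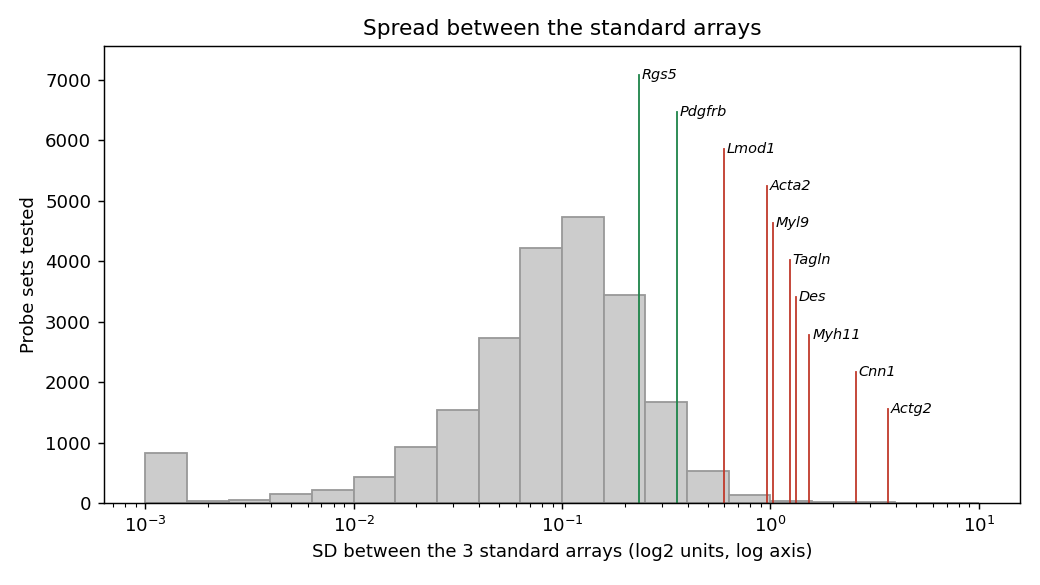
Number of probe sets (y axis, grey bars) by the SD between the 3 standard arrays (x axis, log2 units on a log axis; the first bar holds all values up to its right edge), with the SD of each member gene by its brightest probe set (red lines, contractile genes; green lines, Rgs5 and Pdgfrb). The contractile genes lie in the right tail, from 0.60 for Lmod1 to 3.65 for Actg2, and Rgs5 and Pdgfrb lie at 0.23 and 0.36.

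An SD above 1 between the standard arrays was found for 6 of the 8 contractile genes and for 0.345% of all probe sets tested. Leaving out standard replicate 3 left a median SD over the 10 genes of 0.79, against 1.13 with all 3 arrays, and leaving out standard replicate 2 left 0.88. For most contractile genes the spread did not rest on standard replicate 3 alone: for Actg2, standard replicates 1 and 2 alone differed by 5.59 log2 units and for Cnn1 by 3.44. For Tagln, Des, Myl9 and the brightest Myh11 probe set they differed by 0.98 to 1.54. For Acta2 and Lmod1 they differed by only 0.06 and 0.11. The 2 cafeteria arrays differed as well, by 2.64 for Actg2, 1.61 for Cnn1 and 1.14 for Des, each time with replicate 1 higher. For Tagln, Acta2, Lmod1, Myl9 and the brightest Myh11 probe set they were within 0.22 of each other.

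Rgs5 and Pdgfrb had another order of arrays. Rgs5, a regulator of G protein signalling typical of pericytes, read 9.49, 9.19 and 9.03 in the standard samples and 8.23 and 8.82 in the cafeteria samples. Standard replicate 3, the highest array for every contractile gene, was the lowest standard array for Rgs5, and its SD between standard arrays was 0.23. Pdgfrb, the receptor tyrosine kinase for PDGF-B, read 7.37, 7.49 and 8.04 in standard and 6.75 and 7.51 in cafeteria samples on its brightest probe set. Its second probe set gave 7.03, 6.65 and 6.68 against 6.29 and 6.65, and the third gave 6.78, 6.77 and 6.69 against 6.36 and 6.47. The 3 Pdgfrb probe sets disagreed on which standard array was highest, but all placed cafeteria replicate 1 lowest.

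The promoters of 5 of the 10 genes were found in the RefSeq promoter table of build GRCr8, and 4 are shown because these genes stand for the shapes above: Acta2, high on standard replicate 3 only, Cnn1 and Des, spread over all arrays, and Rgs5, with the smallest SD between standard arrays of the 10 genes by their brightest probe sets, 0.23, which is still above that of 87.3% of all probe sets tested. Each sequence is the 150 bases before the annotated start, 5′ to 3′ on the strand of the gene: Acta2 on chr1:241172504-241172653 (minus strand), Cnn1 on chr8:28908287-28908436 (plus), Des on chr9:84299476-84299625 (plus) and Rgs5 on chr13:84380927-84381076 (plus). Capitals mark stretches of 10 letters at most 1 letter away from the CArG box, the site that serum response factor binds. A CArG box reads the same way on both strands, so 1 strand was searched.
Acta2: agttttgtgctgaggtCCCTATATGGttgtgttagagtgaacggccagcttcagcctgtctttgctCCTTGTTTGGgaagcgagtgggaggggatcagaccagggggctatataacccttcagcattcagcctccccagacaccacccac
Cnn1: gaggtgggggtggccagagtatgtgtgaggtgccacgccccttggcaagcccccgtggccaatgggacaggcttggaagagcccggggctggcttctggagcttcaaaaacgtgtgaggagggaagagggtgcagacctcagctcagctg
Des: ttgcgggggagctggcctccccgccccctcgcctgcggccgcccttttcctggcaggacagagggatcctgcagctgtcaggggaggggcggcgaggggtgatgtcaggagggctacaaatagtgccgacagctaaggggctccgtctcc
Rgs5: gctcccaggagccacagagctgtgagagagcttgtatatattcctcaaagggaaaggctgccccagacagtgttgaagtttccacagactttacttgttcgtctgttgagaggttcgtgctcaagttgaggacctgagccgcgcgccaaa
Acta2 held 2 such stretches, starting at -134 and -84 from the annotated start, and Cnn1, Des, Rgs5 and Actg2, which was searched too, held 0 in this window. An exact CArG box was in none of the 5. Of 33469 windows of the same length in the table, 11.2% held a stretch at most 1 letter off, 1.24% held 2 or more, and 0.878% held an exact box. The matches are a description of these letters, and a window without one says nothing about the factor.

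The first comparison the design implies is cafeteria against standard for these genes. All 13 probe sets had a lower mean in the cafeteria samples, where 51.3% of all probe sets did. With standard replicate 3 left out, 10 of the 13 did. No member passed the test (limma, adjusted p from 0.256 to 0.835), and 0% of all probe sets did. An unadjusted p under 0.05 was found for 2 of the 13 member probe sets, 1 each of Rgs5 and Pdgfrb, and for 12.7% of all probe sets, so the members' share lay near that background. The median difference over the 10 genes, each by its brightest probe set, was -0.73 log2 units, against -0.0036 over all probe sets tested. It was -0.12 without standard replicate 3, with 7 of 10 genes lower, and -1.28 without standard replicate 2.

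Among the contractile genes, Des came nearest to a diet difference as large as the SD between standard arrays, without reaching it. It had 8.40 ± 0.81 (SD, n = 2) in cafeteria and 9.64 ± 1.33 (SD, n = 3) in standard samples, and the difference was -1.24 ± 0.88 (SE; 95% interval -3.58 to 1.10; limma, adjusted p = 0.536). The diets overlapped for Des, and the estimate was -0.57 without standard replicate 3. Cnn1 differed by -1.26 ± 1.64 (adjusted p = 0.720 in limma), and by -0.16 without standard replicate 3. Actg2 differed by -1.11, with a 95% interval of -7.39 to 5.18 that spans both directions widely, and by 0.25 without standard replicate 3. For Tagln the difference was -0.84 ± 0.76, for the brightest Myh11 probe set -0.74 ± 0.94, for Acta2 -0.63 ± 0.59, for Myl9 -0.59 ± 0.63 and for Lmod1 -0.30 ± 0.37. Without standard replicate 3 these came to -0.22, 0.025, -0.08, -0.06 and 0.040. In all 9 contractile probe sets the arrays of the diets overlapped. Over all probe sets tested, 14.1% had no overlap with cafeteria lower and 13.3% with cafeteria higher, so overlap was common. In 7 of the 9 both cafeteria arrays lay inside the range of the standard arrays. The share of all probe sets for which that held was not counted.

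**Figure D3:**
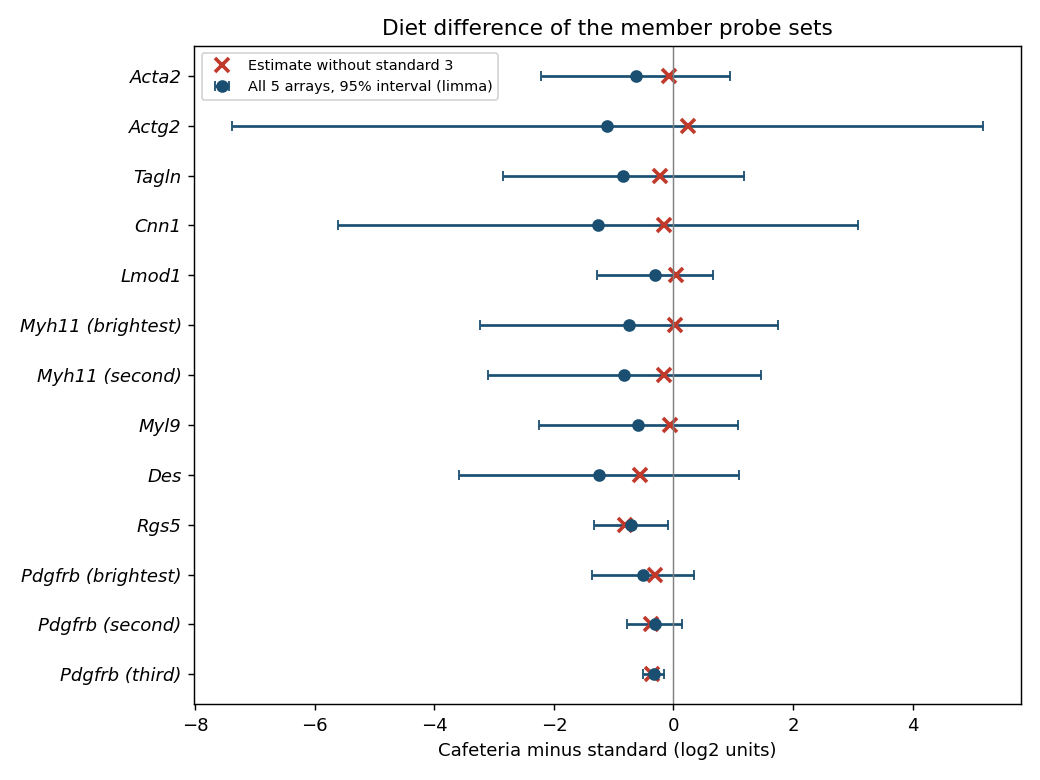
Difference between cafeteria and standard samples (x axis, log2 units; points, limma estimates from 2 and 3 arrays; bars, 95% intervals) for the 13 member probe sets (rows), with the estimate when standard replicate 3 is left out (crosses). The contractile intervals all include 0 and their estimates move towards 0 without that array, while Rgs5 and the third Pdgfrb probe set have 5-array intervals below 0, centred at -0.71 and -0.33.

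The pericyte genes gave smaller intervals. Rgs5 had 8.53 ± 0.41 (SD, n = 2) in cafeteria and 9.24 ± 0.23 (SD, n = 3) in standard samples, a difference of -0.71 ± 0.23 (SE; 95% interval -1.33 to -0.10), or 1.64-fold. The diets did not overlap, with the cafeteria arrays below, as in 14.1% of all probe sets. The unadjusted p was 0.0319, one that 6.62% of all probe sets reached in the lower direction, and the adjusted p of 0.353 in limma missed the threshold. The size for Rgs5 rested on cafeteria replicate 1: leaving that array out gave -0.42, and leaving out cafeteria replicate 2 gave -1.01. The third Pdgfrb probe set differed by -0.33 ± 0.06 (limma, unadjusted p = 0.00499, adjusted p = 0.256), with no overlap of the arrays. The brightest and second Pdgfrb probe sets differed by -0.51 ± 0.32 and -0.32 ± 0.17. On the brightest the diets overlapped. On the second they only met, with cafeteria replicate 2 and standard replicate 2 both at 6.65. A two-sided exact permutation test, which has 10 ways to split 5 arrays, gave p = 0.1 for Rgs5 and the third Pdgfrb probe set, the smallest it allows, and 0.3 to 0.9 for the other member probe sets.

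Other genes of the contractile apparatus, from lists written for this tissue, followed the standard arrays in part. Of 12 further thin and thick filament genes past the filter, 0 passed the diet test in limma (smallest adjusted p = 0.358), 1 had an unadjusted p under 0.05, 11 had a lower mean in cafeteria samples, and the median was -0.24. This count and those of the next lists are read against the 12.7% of all probe sets with an unadjusted p under 0.05. The muscle-type tropomyosin Tpm2 read 10.91, 9.52 and 12.19 in standard and 10.42 and 9.59 in cafeteria samples. Tpm1 and Smtn, the latter smoothelin, had SDs between standard arrays of 0.82 and 0.76, again with standard replicate 3 highest. The skeletal actin gene Acta1 read 5.95, 3.95 and 6.93 against 4.47 and 4.21. Standard replicate 3 was the highest array for 4 of the 12 genes, against 18.1% of all probe sets tested. For 2 it was more than 1 log2 unit above the next array, against 0.175% of all. Non-muscle relatives had less spread than any contractile member: Actg1, the cytoplasmic gamma actin, had an SD of 0.06, Tagln2 of 0.09, Cnn3 of 0.11 and Myh9 of 0.17. By diet, Tagln2 differed by -0.22 ± 0.07, Myh9 by -0.26 ± 0.11, Cnn3 by -0.35 ± 0.19 and Acta1 by -1.27 ± 0.93, none past the threshold.

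Among 19 genes that control contraction, standard replicate 3 was highest for 14, against 18.1% of all probe sets tested. It was more than 1 log2 unit above the next array for 4, against 0.175% of all. Kcnma1, the pore of the large-conductance potassium channel, read 5.50, 3.57 and 7.16 in standard and 4.60 and 3.97 in cafeteria samples. Phospholamban, Pln, which restrains the calcium pump of the sarcoplasmic reticulum, read 6.90, 5.84 and 8.60 against 5.58 and 6.06. Mylk, the kinase that phosphorylates the myosin light chain, read 10.88, 10.35 and 12.04 against 10.30 and 10.005. For Mylk the diets did not overlap, and the difference was -0.94 ± 0.54 (limma, adjusted p = 0.501). Jph2, which couples membrane and reticulum, had an SD between standard arrays of 0.78. The smallest diet p values of this list belonged to Rock2, a kinase that keeps the light chain phosphorylated, at 0.23 ± 0.07, to Irag1, which restrains the calcium channel Itpr1, at -0.73 ± 0.24, to the guanylate cyclase subunit Gucy1a1 at -0.52 ± 0.17, and to Itpr1 at -0.30 ± 0.12. Gucy1b1, the partner subunit of Gucy1a1, differed by -0.32 ± 0.36 with overlapping arrays, and Pde5a, which breaks down cyclic GMP, by -0.13 ± 0.30. The list had 17 of 19 members lower, a median of -0.23 and 0 past the threshold (limma, smallest adjusted p = 0.334), with 3 at an unadjusted p under 0.05.

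In the list of dense body, adhesion and intermediate filament genes 0 of 28 passed in limma and 3 had an unadjusted p under 0.05. Of the 28, 13 were lower and 15 higher, and the median was 0.04. Synm, the desmin partner synemin, read 8.996, 8.10 and 10.08 in standard and 8.18 and 7.64 in cafeteria samples. Nexn, Fhl2 and Flna had SDs between standard arrays of 0.81, 0.57 and 0.56. The genes with the smallest p lay higher in cafeteria samples: Ldb3 by 1.20 ± 0.20, the integrin Itga7 by 0.69 ± 0.14, the sarcoglycan Sgca by 0.76 ± 0.17 and vimentin, Vim, by 0.13 ± 0.06 (limma, adjusted p from 0.239 to 0.450). Their cafeteria arrays lay above all standard arrays, as did those of 13.3% of all probe sets. Ldb3, Itga7 and Sgca also occur in striated muscle; on standard replicate 3, the array with the highest contractile values, they read 7.82, 9.67 and 8.00, below both cafeteria arrays.

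The regulators of the programme had a median SD between standard arrays of 0.17, against 0.10 over all probe sets tested. Standard replicate 3 was highest for 8 of the 21 past the filter, against 18.1% of all probe sets tested. Srf, serum response factor itself, read 8.49, 8.40 and 8.62 in standard and 8.34 and 8.28 in cafeteria samples. Its coactivator Mrtfa had an SD between standard arrays of 0.04. Among those past the filter, Hey2, Gata6, Foxf1 and Foxo4 had the largest, 0.70, 0.41, 0.37 and 0.28. That of Hey2 exceeded the 0.60 of the contractile gene Lmod1. Myocd, the gene of myocardin, did not pass the filter and had an SD of 0.51, with standard replicate 3 highest. Of 21 regulators 0 passed for diet in limma, and 3 had an unadjusted p under 0.05. The 4 with the smallest p were the Notch targets Hey1 at -0.74 ± 0.10 and Heyl at 0.56 ± 0.14, and the MADS box factors Mef2c at -0.61 ± 0.15 and Mef2d at 0.23 ± 0.09 (limma, adjusted p from 0.222 to 0.413). Hey1 and Heyl thus lay on opposite sides.

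**Figure D4:**
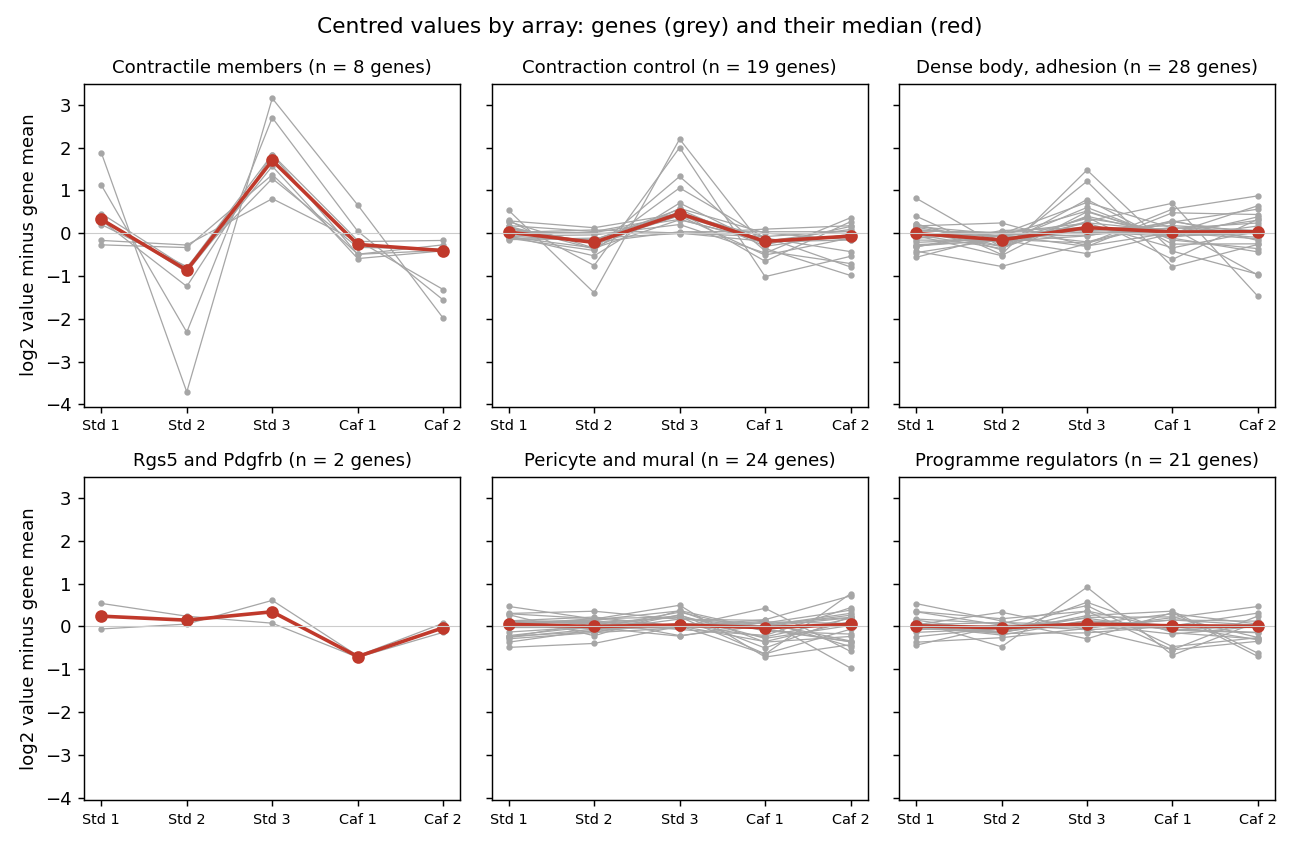
Log2 values minus the mean of each gene over the 5 arrays (y axis) by array (x axis; the lines join the values of 1 gene and carry no order) for 6 groups of genes, with single genes in grey and their median in red. The median of the 8 contractile members peaks on standard replicate 3 and is lowest on standard replicate 2; the medians of the wider pericyte list and of the regulators stay closer to 0 on all arrays.

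The wider list of pericyte and mural cell genes, 24 past the filter, had a median SD between standard arrays of 0.14 and none above 0.32, the value of Olfml2a. Mcam, Cspg4 and Ebf1 followed at 0.27, 0.26 and 0.21. For diet 14 genes were lower and 10 higher, 0 passed in limma, 6 had an unadjusted p under 0.05, and the median was -0.16. The smallest p values belonged to Kcnj8 and Abcc9, which form the vascular ATP-sensitive potassium channel. Kcnj8 read 8.03, 7.74 and 8.06 in standard and 6.85 and 7.14 in cafeteria samples, a difference of -0.95 ± 0.15 (limma, adjusted p = 0.229), and Abcc9 differed by -0.50 ± 0.11 (adjusted p = 0.276 in limma). The connexin Gja4 at -0.59 ± 0.19 and the vein factor Nr2f2 at -0.34 ± 0.11 came next. The proteoglycan NG2, Cspg4, which marks the same cells, lay the other way, 0.73 ± 0.24 higher, and Notch3 differed by 0.17 ± 0.11. Endothelial genes lay lower beside these: all 20 measured endothelial genes had a lower mean in cafeteria samples, with a median of -0.40, and their mean level was 8.24 and 8.76 in cafeteria against 8.89 to 8.96 in standard samples. Their part in the Rgs5, Kcnj8 and Pdgfrb values was not tested.

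The ligands and other receptors of the PDGF family differed little. Pdgfra, the receptor of fibroblasts and fat progenitors, read 10.56, 10.55 and 10.54 in the standard samples and 10.34 and 10.54 in the cafeteria samples. Pdgfc differed by -0.20 ± 0.12, Pdgfrl by -0.24 ± 0.19, Pdgfra by -0.11 ± 0.08 and Pdgfa by -0.16 ± 0.15. Pdgfd had the largest SD between standard arrays, 0.25. All 5 genes measured were lower in cafeteria samples, with a median of -0.16, and 0 passed or had an unadjusted p under 0.05 (limma, smallest adjusted p = 0.505).

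Other muscle and gut-wall cell types were checked beside the contractile genes. Skeletal and cardiac muscle genes had means over 26 genes of 4.59, 4.53 and 4.76 in standard and 4.65 and 4.59 in cafeteria samples, highest on standard replicate 3. That array was the highest for 8 of the 26, and for 1 of the 9 that passed the filter. With each gene centred on its own mean, the 9 averaged -0.04, -0.04 and -0.01 on standard replicates 1, 2 and 3. They averaged 0.07 and 0.02 on cafeteria replicates 1 and 2. Tnnc2, the troponin C of fast muscle, read 5.66 on standard replicate 3 and 3.29 to 4.09 on the other arrays. Ckm, the muscle creatine kinase, also had its highest value there, 4.58 against 3.90 to 4.22, and the fast myosin Myh4 read at most 2.87. The means of Tnnc2, Ckm and Myh4 did not pass the filter. The probe set of Myh1, another fast myosin, is of a kind that may match other transcripts and was bright on all arrays, at 10.14 to 10.44 in standard and 10.51 and 10.79 in cafeteria samples. Markers of interstitial cells of Cajal and enteric neurons had means over 15 genes of 4.84, 4.70 and 5.19 in standard and 4.79 and 4.56 in cafeteria samples, so standard replicate 3 was highest there as well. Of the pacemaker cell genes, Kit had its lowest standard value on replicate 3, with 6.45, 6.25 and 5.86 on standard replicates 1, 2 and 3, and Ano1 its highest, with 7.78, 7.78 and 8.01. Mesothelial genes, which mark the lining of the mesentery, had means over 15 genes of 8.39, 8.31 and 8.11 in standard and 8.65 and 7.94 in cafeteria samples. Standard replicate 3 was the lowest standard array by the mean but not by the median, which was 9.12, 8.77 and 8.99. Fat cell genes had means over 20 genes of 11.32, 11.53 and 11.51 in standard and 11.72 and 11.90 in cafeteria samples. Of the 20, 18 had a higher mean in cafeteria samples. For 16 both cafeteria arrays lay above all standard arrays, as for 13.3% of all probe sets tested. Intestinal epithelium genes had means of 3.95, 3.93 and 3.92 in standard and 3.99 and 3.99 in cafeteria samples. The part of any of these cells in the contractile values was not tested.

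The genes nearest to the members were found by distance over the 5 centred values, from the mean profile of the 10 genes. That profile was 0.44, -1.01 and 1.52 on standard replicates 1, 2 and 3 and -0.30 and -0.65 on cafeteria replicates 1 and 2. The 8 nearest other genes were Spink8, Tpm2, Fbxl22, Aoc1, Abcg4, Synm, Acta1 and Bag2, at distances of 0.34 to 0.69 log2 units. Of these, Tpm2, Synm and Acta1 stand on the muscle lists above. Spink8, a gene of the serine protease inhibitor family, read 5.52, 4.29 and 6.98 in standard and 4.81 and 4.76 in cafeteria samples, and Fbxl22 read 5.24, 3.52 and 6.60 against 4.42 and 4.32. Among the members Tagln lay closest to the mean profile, at 0.41, followed by Myl9 at 0.50 and Myh11 at 0.52. Actg2 lay farthest, at 3.84, with a range wider than that of the profile, followed by Cnn1 at 2.12 and Rgs5 at 2.03.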

How the data were processed

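Total RNA from each sample was hybridized to 1 Affymetrix rat array. The deposited values are log2 expression levels per probe set, which the authors made with RMA in the affy package, per the submitters' processing notes; their versions are not given in the sources used. RMA makes array distributions alike, which can hide a shift common to most genes. Groups came from the titles.

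Array controls (57 probe sets) were dropped. Probe sets whose mean over the 5 arrays was above the 30th percentile were tested in R 4.3.3 with limma 3.58.1, by lmFit and eBayes (two-sided, as cafeteria minus standard, Benjamini-Hochberg over all 21729, threshold 0.05). The fit had 3 residual degrees of freedom. P-values measure only the spread between these samples, partly shared between probe sets in this way. Symbols came from GEO's platform annotation: 20826 probe sets had 1, 436 several and 9780 none. All 13 member probe sets were found in the RefSeq gene table under the same symbol. A gene was represented by its brightest probe set. The fit was tested on simulated data. Figures used matplotlib 3.10.9 in Python 3.11.15.

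The members and lists were chosen with earlier results of these data known. Named besides the members were, per smooth muscle, pericyte or PDGF list, the 4 genes with the smallest p and the 4 with the largest SD between standard arrays, the 8 nearest genes, Adipoq and Pecam1; other names were chosen after their values were seen. Listed genes without their own probe set are not analysed here. Alternatives were other filters, normalizations, variance models, array weights, a replicate block, other probe sets per gene, and leaving out each array.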

Additional observations from a re-analysis of the deposited data

How the results depend on the processing

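No member probe set and no other smooth muscle, pericyte or PDGF gene passed the threshold under any alternative run, and 0 of all probe sets did. The median difference over the members was -0.73 under no filter, quantile normalization and cyclic loess, -0.51 with array weights, and between -1.28 and -0.12 when 1 array was left out. Member probe sets at an unadjusted p under 0.05 numbered 2, or 1 with the unmoderated model, and 1 to 2 with 1 array left out. The median SD between standard arrays was 1.13 to 1.15 under the other normalizations and gene summaries, and 0.79 to 1.603 without 1 standard array.

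The replicate block, which takes the number in the title as a pair and so drops standard replicate 3, gave a median of -0.12. Under it, as without that array, the brightest Myh11 probe set turned to 0.025, Lmod1 to 0.040 and Actg2 to 0.25. With 1 array left out, the brightest Myh11 probe set ranged from -1.51 to 0.025, Lmod1 from -0.50 to 0.040, Actg2 from -3.18 to 0.25 and Pdgfa from -0.38 to 0.059; Actg2 was 0.22 and Pdgfa 0.059 without cafeteria replicate 2. Same-numbered arrays deviated together with correlations of 0.08 and -0.04 across probe sets, so the numbers were not taken as pairs. The block changed no call. The cause of these shifts was not tested beyond the samples left out. With 2 and 3 arrays, differences smaller than the intervals given are not resolved.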

Other observations

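Several transcripts, most of them not named above, were high on standard replicate 3 as well. They were chosen after their values were seen, and some belong to lists already given. Tacr2, a tachykinin receptor, read 6.32 on that array and 3.59 to 4.03 on the other 4. It is part of the list of interstitial cells of Cajal and enteric neurons above. Of the 8 genes of that list past the filter, only Tacr2 was more than 1 log2 unit above the next array on standard replicate 3. The neuropeptide gene Vip read 5.92 there and 3.25 to 4.44 elsewhere, although its mean did not pass the filter, and the gastrin-releasing peptide gene Grp read 6.45 there and 4.08 to 4.72 elsewhere. Among listed smooth muscle genes whose means did not pass the filter, Myocd, the gene of myocardin, was dim on all arrays and highest on standard replicate 3, at 4.36 against 3.06 to 3.67. Kcnmb1, the partner subunit of Kcnma1, read 5.07 there and 3.66 to 3.86 elsewhere. In the other direction, Clec3b, a fibroblast and progenitor gene, read 6.45 on standard replicate 3 and 9.55 to 10.27 on the other arrays. It stood alone in its list. Of the 16 fibroblast and progenitor genes past the filter, only Clec3b had an SD between standard arrays above 1. The median SD of that list was 0.10.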
